A study of Mus musculus with 11 samples.

Results

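The 4 genes described here are those of the classical platelet-derived growth factor (PDGF) system, the ligands Pdgfa and Pdgfb and the receptors Pdgfra and Pdgfrb, chosen by name among the 26921 genes listed in the count files of 11 single-cell libraries from mouse brain cortex. All mice were C57BL/6, and each library held the pooled cortex of several mice. The Juvenile group had 4 libraries of 6 untreated mice each, taken at postnatal day 10. The Adult group had 3 libraries of 6 untreated mice each at 7 to 11 weeks of age. The Aged group had 2 libraries of 3 untreated mice each at 18 months. The EAE group had 2 libraries of 3 mice each at the same age as Adult, taken at the peak of experimental autoimmune encephalomyelitis, a model of multiple sclerosis raised in female mice by injecting a peptide of myelin oligodendrocyte glycoprotein in Complete Freund's Adjuvant, followed by pertussis toxin. Mice given the adjuvant and toxin alone were not analysed here. All tissue was depleted of myelin and dead cells before capture, and the same Adult libraries served as control in all 3 comparisons.

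PDGF ligands are secreted dimers that bind receptor tyrosine kinases. In the brain, PDGF-B made by endothelial cells (ECs) is retained at the vessel wall, where it recruits and maintains pericytes that carry the receptor PDGFRβ. PDGF-A signals through PDGFRα and is best known for driving oligodendrocyte precursor cells (OPCs), while both receptors are also used as markers of fibroblasts. Pdgfa (ENSMUSG00000025856.15) lies on chromosome 5 at 138976014 to 138997370, Pdgfb (ENSMUSG00000000489.7) on chromosome 15 at 79995874 to 80014977, Pdgfra (ENSMUSG00000029231.15) on chromosome 5 at 75152292 to 75198215 and Pdgfrb (ENSMUSG00000024620.11) on chromosome 18 at 61045150 to 61085061, all as whole genes in build GRCm38.

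Unique molecular identifiers (UMIs), which count captured RNA molecules, totalled between 15755504 and 34326349 per library, and 50625 of 54646 barcodes passed the filters on cells. Of these, 20931 were ECs, 810 pericytes, 417 smooth muscle cells (SMCs), 1172 fibroblast-like cells, 980 astrocytes, 68 OPC-like cells, 201 oligodendrocytes, 8258 microglia, 1980 perivascular macrophages (PVMs) and 6678 choroid plexus cells. The Adult 2 and 3 libraries differed by about as much as random divisions of their ECs and were counted as 1 sample, which leaves 10 samples. By the same chi-square per degree of freedom over genes, Juvenile 1 and 2 (2.84), Juvenile 3 and 4 (2.51) and Aged 1 and 2 (2.88) also stayed below the highest of 20 random divisions of their ECs (3.26, 2.72 and 3.55), while EAE 1 and 2 (2.07) exceeded it (1.84). The Juvenile and Aged pairs may thus not be independent samples. Near-identical libraries are taken below as pairs with a value under 3 times the median of random divisions. That includes EAE 1 and 2, which may also not be independent. All these pairs except Adult 2 and 3 were kept apart in the tests. For the 4 genes, calls lost with near-identical libraries summed, which leaves 6 samples, are given beside the results, and the counts over the pathway list were not repeated in this way. RNA of choroid plexus cells was more abundant in ECs of the Adult libraries, where 6 choroid plexus markers summed to 16483 to 48733 CPM, than in ECs of the other libraries, with 3702 to 8586 CPM. In pericytes the range of Adult, from 18684 CPM, overlapped with that of Aged, up to 28139 CPM, and in SMCs the range of Adult, from 14725 CPM, with that of Juvenile, up to 15457 CPM. CPM is the level of a gene in a class of a library, its UMIs divided by all UMIs of those cells and scaled to one common total. The libraries read the 3′ end of transcripts, so levels are compared within a gene and not between genes, and a class level cannot separate fewer expressing cells from less RNA per cell. The labels do not say whether the libraries of a group came from separate pools of mice, so p-values measure only the spread between libraries.

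In all, 10674 UMIs of Pdgfa were found in 6782 cells, 12638 of Pdgfb in 9203 cells, 2184 of Pdgfra in 1435 cells and 5062 of Pdgfrb in 2222 cells. Among the classes named from markers, each gene had its highest level in another class. Pdgfb was highest in ECs, with a median of 107 CPM over the 10 samples, and microglia came next with 39.0 CPM. Pdgfrb was highest in pericytes, then in SMCs and fibroblast-like cells. Pdgfa was highest in SMCs with 390 CPM, followed by oligodendrocytes with 181 CPM. Small clusters outside these classes lay between: for Pdgfa a mitotic mural cluster (354 CPM), a glia cluster with Enpp6 (279 CPM) and a mural cluster with Rgs5 and Steap4 (220 CPM), and for Pdgfrb the last of these (1014 CPM) and the mitotic mural cluster (505 CPM), below pericytes (1461 CPM) and above SMCs (340 CPM). Pdgfra was highest in OPC-like cells with 694 CPM, then in fibroblast-like cells with 125 CPM and choroid plexus cells with 35.6 CPM, while every class below these had a median of 2.47 CPM or less.

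**Figure D1:**
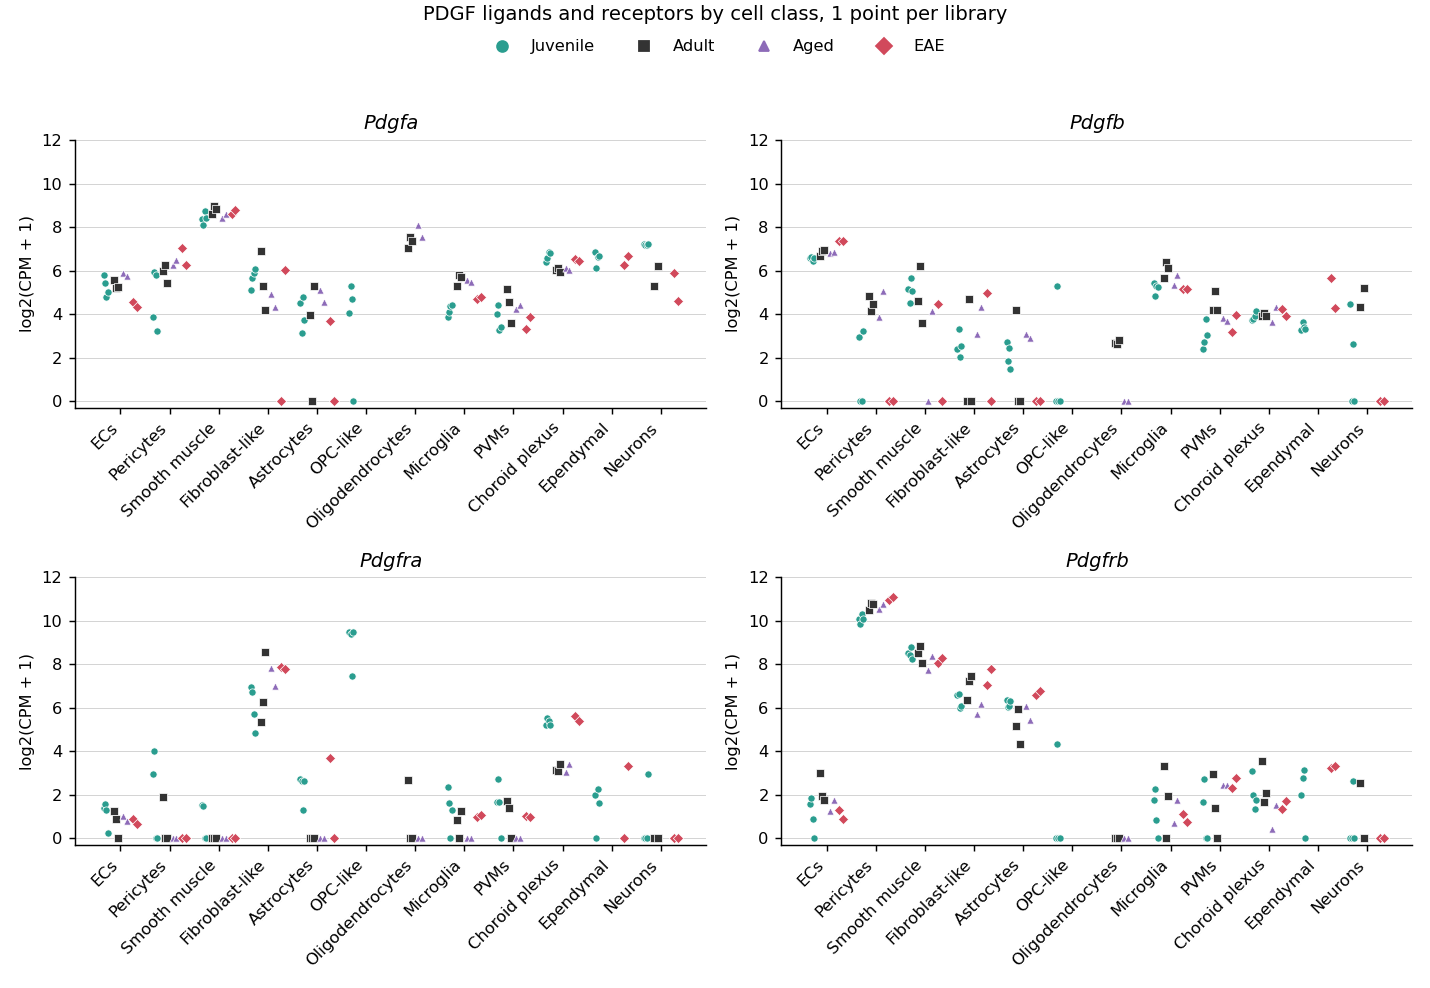
Levels of the 4 genes in 12 cell classes, as log2(CPM + 1), with 1 point for each library that had at least 10 cells of the class, coloured by condition. Pdgfb stands highest in ECs, Pdgfrb in pericytes, Pdgfa in smooth muscle cells and Pdgfra in OPC-like cells, the last measured only in the 4 Juvenile libraries.

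Neighbouring classes in each gene's order were compared within samples by an exact two-sided sign-flip permutation test, 59 pairs in all. The order was set from the same values and left out the small clusters just named. By this exact permutation test, 3 pairs passed after Benjamini-Hochberg adjustment, each with the smallest p that 10 samples allow (p = 0.00195, adjusted p = 0.0384): ECs above microglia for Pdgfb, by 1.41 on the log2 scale in 10 of 10 samples, and pericytes above SMCs and SMCs above fibroblast-like cells for Pdgfrb. With near-identical libraries summed, which leaves 6 samples and a smallest possible p of 0.03125, 0 pairs passed this permutation test. Pdgfra was higher in fibroblast-like than in choroid plexus cells in 9 of 10 samples, but the adjusted p was 0.0864. OPC-like cells were above fibroblast-like cells in Pdgfra in all 4 samples that had both, where the permutation test cannot give a p below 0.125.

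To compare shares of cells with at least 1 UMI across depths, each cell was thinned to 1500 UMIs. Pdgfrb was detected in 85.1% ± 7.97 (SD, n = 10) of pericytes and in 39.4% ± 9.88 (n = 9) of SMCs. Astrocytes with 11.5% ± 5.21 and fibroblast-like cells with 10.9% ± 5.16 (both n = 10) came next, and ECs had 0.209% ± 0.203 (n = 10). The share in pericytes is that of the deeper cells only, since 80.0% of EAE and 77.1% of Aged pericytes held fewer UMIs and were left out, against 1.52% of Juvenile pericytes. Pdgfb was detected in 14.8% ± 3.55 (n = 10) of ECs and 36.0% before thinning. Microglia came next with 6.06% ± 1.39 (n = 10), while astrocytes had 0.481% ± 1.20 (n = 10). Pdgfa was detected in 43.9% ± 9.51 (n = 9) of SMCs, 67.1% before thinning. Oligodendrocytes came next with 25.9% ± 5.49 (n = 4). Choroid plexus cells had 11.2% ± 4.01 (n = 10) and T and NK cells 0.361% ± 0.80 (n = 9). Pdgfra was detected in 44.9% ± 21.2 (n = 4) of OPC-like cells and 12.1% ± 7.90 (n = 10) of fibroblast-like cells, the latter 25.6% before thinning. Choroid plexus cells came next with 4.65% ± 3.36 (n = 10), while ECs had 0.180% ± 0.179 (n = 10).

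Pdgfb in ECs was higher in EAE than in Adult. Its level was 166 and 162 CPM in the 2 EAE libraries, 102, 117 and 123 CPM in Adult, 112 and 115 CPM in Aged, and 96.3, 97.8, 87.3 and 93.9 CPM in Juvenile. Both EAE libraries were above all others, both Aged libraries lay within the Adult range, and all 4 Juvenile libraries were below every Adult library. In EAE the log2 fold change against Adult was 0.74 ± 0.10 (SE; adjusted p = 0.000214, edgeR quasi-likelihood test with Benjamini-Hochberg adjustment over 13682 genes), in a comparison in which 27% of all genes passed. With near-identical libraries summed, which leaves 1 EAE sample, the change was 0.79 and the adjusted p was 0.0691. The Aged difference was 0.03 on the log2 scale, with a 95% interval of -0.19 to 0.25 (adjusted p = 0.892; 5.21% of genes passed). The Juvenile difference was -0.18, with an interval of -0.37 to 0.01 (adjusted p = 0.115; 43% of genes passed), and without the Adult 1 library it was -0.29 with an adjusted p of 0.0201. The EC marker list summed to 28039 to 30185 CPM in Adult ECs and 30667 to 30741 CPM in EAE ECs, and choroid plexus markers to 16483 to 48733 CPM and 6717 to 6938 CPM. The part of the choroid plexus RNA in the EAE difference was not tested.

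**Figure D2:**
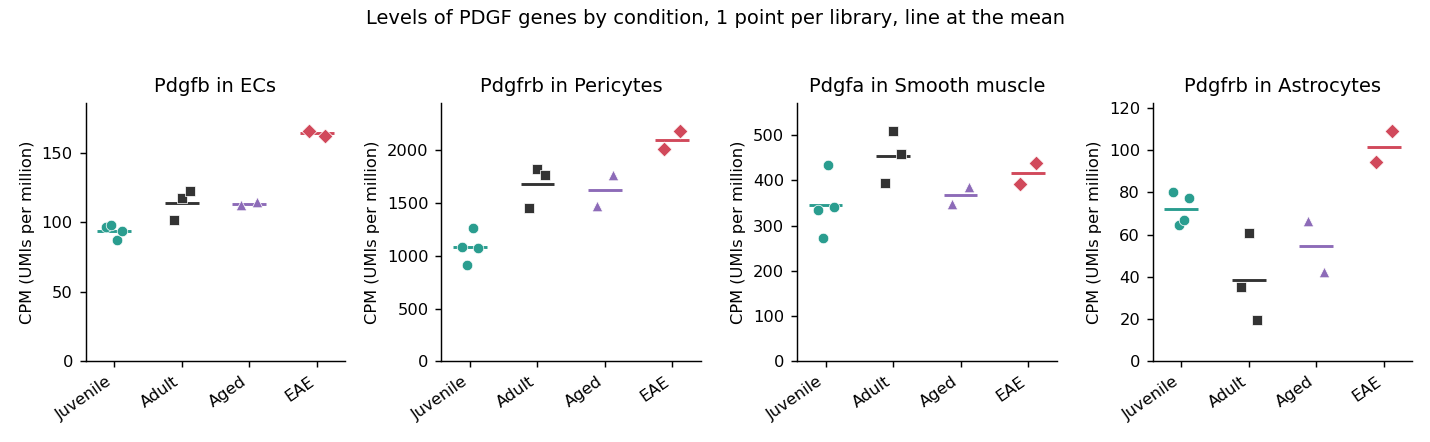
Levels in CPM of Pdgfb in ECs, Pdgfrb in pericytes, Pdgfa in smooth muscle cells and Pdgfrb in astrocytes, with 1 point for each library and a line at the mean of each condition. Pdgfb in ECs is highest in both EAE libraries, Pdgfrb in pericytes is lower in all 4 Juvenile libraries than in any other, and Pdgfa in smooth muscle cells overlaps between conditions, except that both Aged libraries lie below every Adult library.

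EC subtypes were named from marker lists, and a marker is called raised where it was above 20 CPM and more than 1.5-fold higher than in the other ECs of the same stage. The higher level of Pdgfb in EAE was present in several of them. In postcapillary venular capillaries (CapV) it was 212 and 199 CPM in EAE and 108, 140 and 132 CPM in Adult, a log2 fold change of 0.79 ± 0.12 (adjusted p = 0.000455; 19.8% of genes passed). Both EAE libraries were above all Adult libraries. Of 6 CapV markers 3 were raised in this cluster, and 0 were among its 10 leading genes against all cells. In the ECs that no marker list named the change was 0.58 ± 0.12 (adjusted p = 0.00903; 21.4% passed). These ECs pool several clusters. In the cluster of 624 cells led by Ifit3, Pdgfb was 131 and 92.7 CPM in EAE and 78.0, 137 and 126 CPM in Adult, which overlapped. In the other clusters pooled there, both EAE libraries were above all Adult libraries. Precapillary arteriolar capillaries (CapA) formed 2 clusters, both with 5 of 6 CapA markers raised and 1 also with 6 of 10 arterial markers, of which 3 were among its 10 leading genes against all cells beside 2 CapA markers, so the clusters were compared separately. In that cluster, of 2013 cells, the level was 155 CPM in both EAE libraries and 113, 127 and 125 CPM in Adult, a change of 0.41 ± 0.14 (adjusted p = 0.0484; 16.6% passed). In the other, of 1585 cells, it was 169 and 161 CPM in EAE and 150, 114 and 134 CPM in Adult, and the difference of 0.38 ± 0.17 did not pass (adjusted p = 0.177; 12.7% passed), although the groups did not overlap. None of these 3 calls passed with near-identical libraries summed, which leaves 1 EAE sample, with adjusted p-values of 0.0523 in CapV, 0.184 in the unnamed ECs and 0.453 in the CapA cluster with arterial markers. In arterial ECs it was 165 and 112 CPM in EAE and 64.3, 90.1 and 96.8 CPM in Adult, without passing the test (0.67 ± 0.26, adjusted p = 0.135; 8.54% passed). Aged arterial ECs had 135 and 136 CPM, also above all Adult libraries, and their difference of 0.49 ± 0.24 did not pass (adjusted p = 0.401; 89 of 5680 genes passed). A cluster led by Angpt2, a ligand that destabilizes vessels, had 114 and 105 CPM in EAE and 73.8, 154 and 102 CPM in Adult, and its difference of 0.24 ± 0.25 did not pass (adjusted p = 0.496; 32.4% passed). That cluster held 411 and 389 cells in EAE and 36 to 49 cells in the Adult and Aged libraries.

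Venous ECs and reactive endothelial venules (REVs), which carry adhesion and inflammatory genes, could not be told apart by their markers, and 6 subclusters of such cells are described together as venous and REV ECs. In subcluster 2 more CapV markers (4 of 6) were raised than venous (2) or REV (2) markers, so its own markers go against this name. The Cxcl11 cluster described below, with all 6 REV and all 6 venous markers raised, was kept apart from these 6 subclusters. The Pdgfb level of all 6 was 187 and 209 CPM in EAE and 124, 126 and 115 CPM in Adult. The conditions lay in different subclusters, however. Subcluster 2 held 91.4%, 71.7% and 71.5% of these cells in Adult but 0.231% and 1.29% in EAE, where subcluster 0 held 51.0% and 44.2%, and the difference between conditions and that between subclusters cannot be told apart over all of them. Within subcluster 3, where 5 REV and 5 venous markers were raised, Pdgfb was 259 and 287 CPM in EAE, 159 and 142 CPM in Adult 2 and 3 and 130 and 198 CPM in Aged. Both EAE libraries were above the others, but Adult 2 and 3 were the only Adult sample there. The fit gave 0.91 ± 0.20 (adjusted p = 0.000148; 13.2% passed), and since it must assume that a single Adult sample varies like the other groups, it is read as a value and not as a call.

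Among juvenile ECs, Pdgfb was higher in tip cells, the leading cells of sprouts, than in the main juvenile ECs. These are the 3 largest clusters, left unnamed. Between 0 and 2 of 6 CapV markers were raised in them, but their sums of the CapV list were the highest among juvenile clusters, at 8260 to 9809 CPM, and 2 or 3 CapV markers were among their 10 leading genes against all cells. Pdgfb measured 185, 128, 140 and 130 CPM in tip cells of Juvenile 1 to 4, 147, 127, 128 and 116 CPM in arterial ECs and 86.4, 95.8, 81.7 and 86.9 CPM in the main ECs. Tip cells and arterial ECs were each above these other ECs in all 4 libraries, with no overlap. A small cluster led by Plvap had 100 and 137 CPM in Juvenile 1 and 2, the second above the tip cells of that library, and tip cells were tested against the main ECs only. Against the main ECs, tip cells were higher by 0.77 ± 0.13 (adjusted p = 5.25e-07; 17.6% of 9111 genes passed) and arterial ECs by 0.47 ± 0.11 (adjusted p = 0.000180; 33.7% passed). Mitotic ECs differed by -0.25 ± 0.12 (adjusted p = 0.0899; 33.4% passed) and the juvenile cluster in which 4 venous and 5 REV markers were raised, called venous and REV although none of these was among its 10 leading genes against all cells, by -0.37 ± 0.15 (adjusted p = 0.0658; 22.7% passed).

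Among ECs of the Adult, Aged and EAE libraries, Pdgfb was low in a cluster of 251 cells led by Darc, Cxcl11, Lrg1, Ch25h and Icam1, called the Cxcl11 cluster here. It measured 57.8 and 59.7 CPM in this cluster in Adult 2 and 3, 37.8 and 56.5 CPM in Aged and 95.9 and 113 CPM in EAE, while Adult 1 had only 6 such cells. Venous and REV ECs of the same libraries had 126, 115, 128, 146, 187 and 209 CPM, each above the Cxcl11 cluster of its own library. The log2 difference of the Cxcl11 cluster from venous and REV ECs, subcluster 2 included, was -1.04 ± 0.17 (adjusted p = 5.21e-06; 10.7% of 10017 genes passed). Within the Cxcl11 cluster, the EAE difference from Adult was 0.90 ± 0.44 (adjusted p = 0.217; 10.1% passed), again with Adult 2 and 3 as the only Adult sample and thus read as a value and not as the lack of a difference. This was the comparison planned for REVs: all 6 REV and all 6 venous markers were raised in the cluster, and 5 REV markers in each of subclusters 3 and 6, while against all cells 2 REV markers were among its 10 leading genes and 4 among those of each of these subclusters. In those 2 subclusters together, a choice made after seeing the data, Pdgfb was 237 and 258 CPM in EAE, 166 and 129 CPM in Adult 2 and 3 and 116 and 186 CPM in Aged, with a fitted EAE difference of 0.81 ± 0.18 (adjusted p = 0.000117; 15.4% passed) under the same assumption. Compared with single subclusters, the Cxcl11 cluster was lower than subcluster 3, with a log2 difference of -1.39 ± 0.18 (adjusted p = 1.34e-08; 8.94% of 9625 genes passed). Subcluster 2, which met the Cxcl11 cluster in Adult 2 and 3 alone, had 100.4 and 106 CPM there. The Angpt2 cluster had less Pdgfb than CapV by 0.42 ± 0.11 (adjusted p = 0.00402; 21.3% passed), a call lost with near-identical libraries summed (adjusted p = 0.105). Arterial ECs against CapA (-0.06 ± 0.11, adjusted p = 0.740; 28.7% passed), CapA against CapV (-0.16 ± 0.09, adjusted p = 0.235; 13.2% passed) and venous and REV ECs, subcluster 2 included, against CapV (0.06 ± 0.09, adjusted p = 0.761; 12.4% passed) did not pass. With clusters compared one by one, which was also chosen after seeing the data, neither CapA cluster differed past the test from arterial ECs (-0.04 and -0.05; 28.3% and 28.5% passed) or from CapV (-0.16 and -0.15; 15.4% and 10.6% passed). Subcluster 3 exceeded CapV by 0.44 ± 0.11 (adjusted p = 0.00212; 17.6% passed), while subcluster 2, measured in 2 Adult samples, differed by -0.21 ± 0.17 (adjusted p = 0.808; 1.61% passed). Cells of subclusters 3 and 6 were deep, with a median of 7992 and 6268.5 UMIs, against 3666 in CapV and 3304 in the Cxcl11 cluster. The part of depth in these differences was not tested.

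Pdgfa in ECs differed between subtypes. In arterial ECs of the Adult libraries it measured 232, 132 and 159 CPM, in CapA 95.7, 62.7 and 51.0 CPM, in CapV 22.2, 9.81 and 12.7 CPM and in venous and REV ECs 77.6, 50.2 and 35 CPM. Most of these Adult venous and REV ECs lay in subcluster 2, whose markers go against the name. Over the Adult, Aged and EAE samples, arterial ECs exceeded CapA by 1.31 ± 0.12 (adjusted p = 2.77e-14) and CapA exceeded CapV by 2.29 ± 0.15 (adjusted p = 5.87e-21). By single clusters, arterial ECs exceeded the CapA cluster with arterial markers by 1.05 ± 0.12 (adjusted p = 1.87e-12) and the other by 1.92 ± 0.14 (adjusted p = 4.01e-21). These clusters exceeded CapV by 2.54 and 1.67, and venous subcluster 3 did so by 1.36, all past the test. Subcluster 2, in which more CapV than venous markers were raised, exceeded the CapV cluster by 1.88, also past the test. Also past it was the higher level in juvenile arterial (1.94), venous and REV (1.76) and mitotic (1.11) ECs than in the main juvenile ECs. Juvenile tip cells went the other way with 3.37, 5.46, 2.00 and 7.24 CPM, a difference of -2.19 ± 0.42 (adjusted p = 2.28e-05), and the Plvap cluster had 25.1 and 27.3 CPM. In EAE, Pdgfa of venous and REV ECs was 21.8 and 15 CPM, below all 3 Adult libraries, where again conditions and subclusters cannot be told apart. Within subcluster 3 it was 23.5 and 16.5 CPM in EAE and 38.3 and 30.7 CPM in Adult 2 and 3, with a fitted difference of -0.73 ± 0.45 (adjusted p = 0.339). In subclusters 3 and 6 together the fit gave -1.12 ± 0.39 (adjusted p = 0.0287), and under the assumption given above neither is read as a call. Over all ECs it was 22.6 and 19.1 CPM in EAE and 46.8, 35.3 and 37.1 CPM in Adult, and the EAE difference of -0.77 ± 0.29 did not pass (adjusted p = 0.0736), although both EAE libraries were below every Adult library. It passed with DESeq2 (adjusted p = 0.0244) and without Juvenile 1 (0.0107) or Juvenile 3 (0.0333), which share the estimate of the spread. At the choroid plexus cells' own ratio of Pdgfa to the choroid plexus markers, free RNA of those cells would give ECs 3.17 to 9.82 CPM of Pdgfa in Adult and 1.95 to 1.96 CPM in EAE, below the measured level in 11 of 11 libraries. Its part in the EAE difference was not tested. Arterial ECs numbered 60 and 70 among 3639 and 3515 ECs in EAE. In Adult they numbered 16, 102 and 123 among 851, 2000 and 2127 ECs. The part of the mix of subtypes in the difference over all ECs was not tested either. Within arterial ECs, CapA, CapV and the unnamed ECs the fitted EAE differences were -0.61, -0.43, -0.56 and -0.91, and none passed (edgeR adjusted p = 0.146 or above). Levels over all ECs were 58.0 and 53.5 CPM in Aged and 55.4, 41.6, 26.4 and 30.96 CPM in Juvenile.

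SMCs, the contractile cells of arteries and arterioles, held the highest median of Pdgfa, and no difference between conditions passed. It measured 335, 274, 434 and 341 CPM in Juvenile, 395, 510 and 458 CPM in Adult, 348 and 386 CPM in Aged and 393 and 439 CPM in EAE. The groups overlapped, apart from both Aged libraries lying below every Adult library. The log2 differences from Adult were -0.48 in Juvenile (interval -0.97 to 0.01, adjusted p = 0.169), -0.31 in Aged (interval -0.97 to 0.34, adjusted p = 0.858) and -0.09 in EAE (interval -0.68 to 0.50, adjusted p = 0.942). Of all genes tested in SMCs, 16.6%, 0% and 0.312% passed in the same comparisons, and in Aged that was 0 genes by edgeR, with 170 genes at an unadjusted p under 0.05 and 1 gene by DESeq2. Juvenile SMCs came from another cluster than those of the other conditions. Acta2, a defining gene of SMCs, put the Pdgfa that free SMC RNA could bring to ECs at no more than 0.448 CPM.

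Oligodendrocytes, the myelinating cells, had 131, 189 and 163 CPM of Pdgfa in Adult and 274 and 184 CPM in Aged, which overlapped, and the other libraries had fewer than 10 of these cells. The difference of 0.43 had an interval of -0.38 to 1.25 (adjusted p = 0.767). A juvenile cluster of 46 cells, with Enpp6, a gene of newly forming oligodendrocytes, among its leading genes, had 225 and 333 CPM in the 2 libraries with at least 10 of its cells. One of 3 neuron clusters, with 97 cells, held 268 CPM of Pdgfa over all libraries, against 18.3 and 16.2 CPM in the other 2. Astrocytes and OPC-like cells lay between 0 and 38.8 CPM.

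Pericytes carried less Pdgfrb at postnatal day 10 than in adults. The level was 1083, 911, 1265 and 1076 CPM in Juvenile, 1449, 1826 and 1766 CPM in Adult, 1473 and 1766 CPM in Aged and 2011 and 2185 CPM in EAE. All 4 Juvenile libraries were below every other library, the Aged libraries fell inside the Adult range, and both EAE libraries were above it. The Juvenile log2 fold change was -0.80 ± 0.15 (adjusted p = 6.12e-05), in a comparison in which 34.7% of 3357 genes passed. The Aged difference was -0.11 (interval -0.47 to 0.24, adjusted p = 0.881; 0.506% passed) and the EAE difference was 0.25 (interval -0.11 to 0.60, adjusted p = 0.501; 3.72% passed). The last turned to -0.14 with cells clustered at resolution 0.8 (adjusted p = 0.648). The other cells' RNA in pericytes differed between these groups, and its part in the result was not tested. The pericyte marker list summed to 37562 to 42796 CPM in Juvenile pericytes and 39006 to 47962 CPM in Adult ones, while choroid plexus markers summed to 5312 to 9841 CPM and 18684 to 60258 CPM. SMC markers summed to 4698 to 5612 CPM in Juvenile pericytes and 2275 to 3770 CPM in Adult ones. For EC markers these sums were 390 to 518 CPM and 1422 to 1599 CPM. In Juvenile 90.6% to 100% of pericytes formed a cluster that no other condition shared, and 97.9% of those in Adult 1 formed another.

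SMCs held Pdgfrb at a lower level, and no difference between conditions passed. It ranged from 298 to 440 CPM in Juvenile, 268 to 452 CPM in Adult, 214 to 336 CPM in Aged and 265 to 310 CPM in EAE. The ranges overlapped. The differences from Adult were -0.05 in Juvenile (interval -0.55 to 0.46), -0.36 in Aged (interval -1.05 to 0.34) and -0.29 in EAE (interval -0.92 to 0.34), and the adjusted p was 0.782 or above in each. In fibroblast-like cells it ranged from 62.2 to 99.6 CPM in Juvenile, 80.0 to 172 CPM in Adult, 52.2 to 70.6 CPM in Aged and 131 to 222 CPM in EAE, with no difference that passed. Both Aged libraries were below every Adult library there. Of all genes tested in fibroblast-like cells, 2.98% passed in Juvenile, 0.0289% in Aged and 3.35% in EAE. Pdgfrb was also present in mural cells outside these classes, at 375 and 634 CPM in a mitotic cluster of Juvenile 1 and 2, and at 822 and 881 CPM in Juvenile 1 and 2 and 1147 CPM in Aged 2 in an unnamed cluster of 132 cells led by Rgs5 and Steap4. Both clusters held Pdgfa as well, at 412 and 295 CPM and, in Juvenile 1 and 2 and Aged 2, at 198, 176 and 313 CPM.

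Astrocytes, whose end-feet cover vessels, held Pdgfrb as well. It measured 80.1, 64.4, 66.8 and 77.3 CPM in Juvenile, 35.1, 60.9 and 19.4 CPM in Adult, 66.5 and 42.3 CPM in Aged and 94.2 and 109 CPM in EAE. All Juvenile and EAE libraries were above every Adult library. The Adult levels rest on 12, 3 and 1 UMIs from 108, 18 and 17 cells. Those of EAE rest on 8 UMIs in each library, from 34 and 30 cells. The differences from Adult were 0.86 ± 0.36 in Juvenile (adjusted p = 0.115; 13.4% of genes passed), 0.48 ± 0.44 in Aged (adjusted p = 0.744; 0.758% passed) and 1.51 ± 0.51 in EAE (adjusted p = 0.108; 2.68% passed), and none passed. Kcnj8, a defining gene of pericytes, had no UMI in astrocytes of 4 libraries. In the other 7, free pericyte RNA at the pericytes' own ratio of Pdgfrb to Kcnj8 would give 0.635 to 18.3 CPM, each below the measured level, but in Adult 3 by 18.3 against 19.4 CPM, from 1 UMI of each gene. Juvenile astrocytes came from other clusters than the rest, and the highest of these, led by Bcan, had 113 CPM over 270 cells. Pericyte markers summed to 40.6 to 318 CPM in Adult astrocytes and 27.3 to 94.2 CPM in EAE astrocytes.

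OPC-like cells, recovered in numbers of at least 10 only in Juvenile, held Pdgfra at 712, 682, 177 and 707 CPM. Juvenile 3 was far below the other 3. The gene is a standard marker of OPCs but was not used to find them, since the 4 genes were kept out of clustering. Astrocytes held 0 to 11.8 CPM, and oligodendrocytes 1 UMI in 201 cells.

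Fibroblast-like cells varied widely in Pdgfra, at 121, 105, 50.6 and 27.2 CPM in Juvenile, 40.0, 75.3 and 379 CPM in Adult, 224 and 128 CPM in Aged and 232 and 222 CPM in EAE. The groups overlapped, and no difference passed (-0.93, interval -2.61 to 0.74, in Juvenile; 0.32, interval -1.60 to 2.25, in Aged; 0.75, interval -1.24 to 2.74, in EAE). Leaving out 1 library at a time, they ranged from -1.45 to 0.33 in Juvenile, -0.23 to 1.59 in Aged and 0.18 to 2.02 in EAE. The cells formed 2 clusters that differed in the gene. In the cluster with Lum, a collagen-binding proteoglycan, the level over all libraries of a condition was 271 CPM in Juvenile (95% Poisson interval 241 to 304), 560 CPM in Adult (375 to 805), 453 CPM in Aged (335 to 600) and 320 CPM in EAE (224 to 443). In the cluster with Nov, a matricellular gene also known as Ccn3, it was 14.7, 12.4, 5.50 and 63.1 CPM. The Lum cluster made up 8.70% to 16.7% of fibroblast-like cells in Adult, 9.55% to 34.6% in Juvenile, 20% and 27% in Aged and 70% and 50% in EAE, so that the level in the class and the share of the Lum cluster cannot be told apart. Pdgfrb differed in the same way between the clusters, at 130 to 367 CPM in the Lum cluster and 22.0 to 78.9 CPM in the Nov cluster. Adult had only 8 cells in the Lum cluster, and these intervals cover counting error only.

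**Figure D3:**
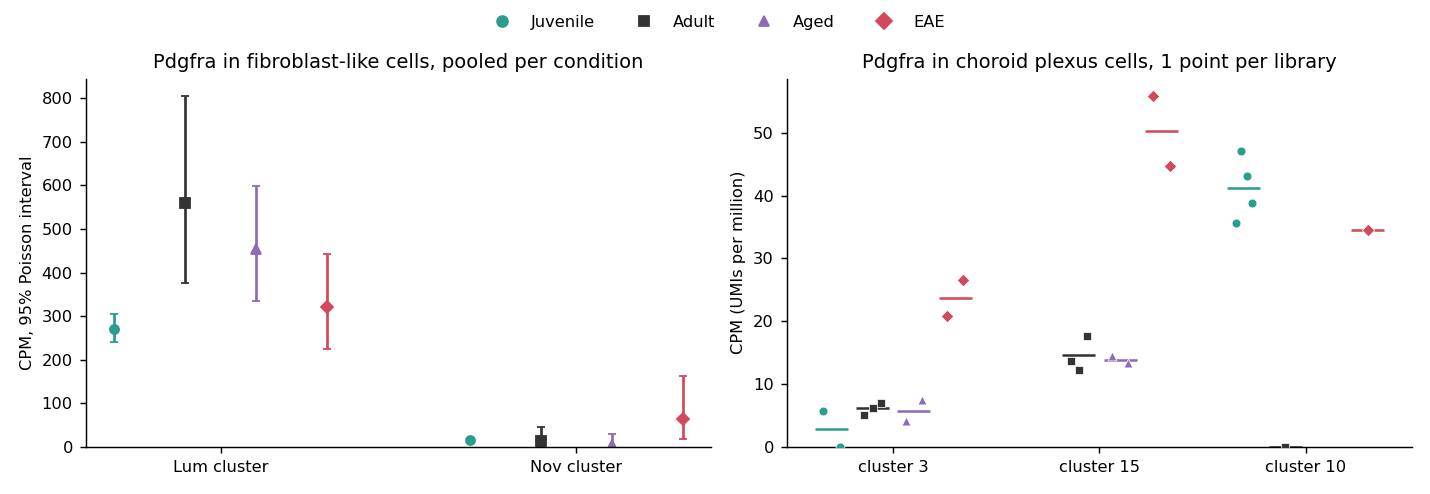
Pdgfra in CPM. Left, the 2 fibroblast-like clusters with all cells of a condition summed, with 95% Poisson intervals. Right, the 3 choroid plexus clusters with 1 point for each library with at least 10 cells and a line at the mean. Pdgfra is higher in the Lum cluster than in the Nov cluster in every condition, and higher in EAE than in Adult in choroid plexus clusters 3 and 15.

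In choroid plexus cells, the secretory epithelium that makes cerebrospinal fluid, Pdgfra was higher in Juvenile and EAE than in Adult. It measured 35.4, 45.8, 40.5 and 35.9 CPM in Juvenile, 7.74, 7.57 and 9.79 CPM in Adult, 7.33 and 9.76 CPM in Aged and 48.8 and 40.9 CPM in EAE. The Juvenile and EAE libraries did not overlap with the Adult and Aged libraries. The log2 fold change was 2.06 ± 0.16 in Juvenile (adjusted p = 1.35e-09; 57% of genes passed), 0.08 ± 0.24 in Aged (adjusted p = 0.934; 1.54% passed) and 2.35 ± 0.17 in EAE (adjusted p = 8.65e-09; 33.3% passed). By Dcn alone, at the fibroblast-like cells' ratio of Pdgfra to it, free fibroblast RNA would give no more than 0.459 CPM in these cells. That ratio is of a class whose clusters differed in Pdgfra. The part of free RNA of fibroblast-like or OPC-like cells in these differences was not tested.

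The choroid plexus cells of the conditions lay in different clusters: 80.9% to 98.0% of Juvenile cells in cluster 10, 80.6% to 93.1% of Adult and Aged cells in cluster 3, and in EAE 52.8% and 50.3% in cluster 15 with 43.9% and 47.9% in cluster 3. Cluster 15 cells were deep, with a median of 18556.5 and 16781 UMIs in the EAE libraries against 3764.5 and 4171 in cluster 3. Within cluster 3 Pdgfra was 20.8 and 26.6 CPM in EAE and 5.10, 6.25 and 7.02 CPM in Adult, and the log2 fold change was 2.13 ± 0.37 (adjusted p = 0.000262; 10.5% of genes passed). Within cluster 15 it was 55.8 and 44.7 CPM in EAE and 13.7, 12.3 and 17.7 CPM in Adult, a change of 1.92 ± 0.19 (adjusted p = 2.57e-06; 14.9% passed). Both EAE libraries were above all Adult libraries in each cluster. In Juvenile the difference within cluster 3 was -0.59 ± 0.82 (adjusted p = 0.696; 14% passed), from 5.74 and 0 CPM in the 2 libraries with at least 10 such cells, so that the Juvenile difference and the change of cluster cannot be told apart. Fibroblast markers summed to 192 to 232 CPM in Juvenile choroid plexus cells, 46.6 to 71.5 CPM in Adult ones and 65.8 to 67.4 CPM in EAE ones. Pdgfa of choroid plexus cells, at 83.5, 94.0, 115 and 113 CPM in Juvenile and 65.5, 69.2 and 60.8 CPM in Adult without overlap, was higher in Juvenile by 0.48 ± 0.12 (adjusted p = 0.00169). Within cluster 3 it was 38.2 and 34.6 CPM in Juvenile, below the 42.9, 51.3 and 43.6 CPM of Adult, and the fit, which rescales samples by TMM, gave 0.06 ± 0.25 (adjusted p = 0.922). Over all clusters it measured 67.7 and 64.8 CPM in Aged. In EAE it was 90.5 and 85.5 CPM, and the difference of 0.34 ± 0.13 did not pass (adjusted p = 0.0535). Within cluster 3 Pdgfa was 35.3 and 46.1 CPM in EAE and 42.9, 51.3 and 43.6 CPM in Adult, and the groups overlapped (-0.0076 ± 0.20, adjusted p = 0.997). Within cluster 15 it was 105 and 97.5 CPM in EAE and 114, 129 and 118 CPM in Adult, with both EAE libraries below the Adult libraries (-0.12 ± 0.13, adjusted p = 0.581). A difference between EAE and Adult in the whole class and the change of cluster cannot be told apart.

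Microglia, the resident immune cells of the brain, held less of both ligands in Juvenile and EAE than in Adult. Pdgfb measured 41.8, 27.6, 38.8 and 37.3 CPM in Juvenile, 49.3, 83.4 and 69.0 CPM in Adult, 39.3 and 55.4 CPM in Aged and 34.5 and 34.8 CPM in EAE. Pdgfa measured 13.7, 16.2, 19.6 and 20.4 CPM in Juvenile, 38.7, 55.6 and 50.7 CPM in Adult, 47.2 and 44.1 CPM in Aged and 24.6 and 26.7 CPM in EAE. For both genes the Juvenile and EAE libraries were below every Adult library. Pdgfb fell by 0.81 in Juvenile (adjusted p = 0.00920) and by 0.65 in EAE (adjusted p = 0.0417) on the log2 scale, and Pdgfa fell by 1.43 (adjusted p = 0.000116) and by 0.64 (adjusted p = 0.0332). Of all genes tested in microglia, 22.3% passed in Juvenile, 1.89% in Aged and 24.7% in EAE, and in Aged neither ligand did (Pdgfb -0.37 ± 0.23, adjusted p = 0.457; Pdgfa 0.02 ± 0.21, adjusted p = 0.97). In EAE 97.8% and 98.5% of microglia lay in a cluster that held 0.545% to 11.2% of microglia in the libraries of the other conditions, and 84.8% of those in Adult 1 lay in another. Both EAE calls were lost without some libraries, where the adjusted p rose to between 0.0533 and 0.185 for Pdgfa without Adult 2, Adult 3, Aged 1, Aged 2, EAE 1 or EAE 2, and to between 0.0568 and 0.178 for Pdgfb without Adult 2, Adult 3, Aged 1, EAE 1 or EAE 2. By DESeq2 it was 0.122 and 0.109. With near-identical libraries summed, neither EAE call passed, nor did that of Pdgfb in Juvenile.

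EC markers in microglia moved with these results: the 8 genes summed to 1542 to 1784 CPM in Adult, 323 to 367 CPM in Juvenile and 632 to 710 CPM in EAE. At the ECs' own ratio of Pdgfb to Cldn5, free EC RNA would give 1.03 to 6.04 CPM of Pdgfb in microglia, and the measured level was higher in 11 of 11 libraries. Choroid plexus markers in microglia summed to 22438 to 56692 CPM in Adult, 5664 to 16107 CPM in Juvenile and 8106 to 10905 CPM in EAE, and free choroid plexus RNA would give 0.193 to 2.43 CPM of Pdgfb and 1.31 to 11.4 CPM of Pdgfa, below the measured level in 11 of 11 libraries. The part of free RNA in the lower levels of Juvenile and EAE was not tested. In EAE Pdgfb was higher in ECs and lower in microglia than in Adult. The difference between the 2 changes, tested as an interaction in 1 fit of both classes, was -1.35 ± 0.20 on the log2 scale (adjusted p = 1.10e-05; 13.7% of 13835 genes passed). The same test in Juvenile, where 16% of genes passed, gave -0.56 for Pdgfb (adjusted p = 0.0353) and -1.35 for Pdgfa (adjusted p = 0.0315). It did not pass for Pdgfa in EAE (0.18, adjusted p = 0.844) or for either ligand in Aged, where only 78 of 13835 genes passed. Pdgfb in Juvenile did not pass this test with near-identical libraries summed (adjusted p = 0.121), while Pdgfb in EAE (0.000291) and Pdgfa in Juvenile (1.88e-06) did. In PVMs, the macrophages beside vessels, Pdgfb was 4.26, 5.53, 12.9 and 7.28 CPM in Juvenile and 17.1, 32.2 and 17.4 CPM in Adult, which did not overlap, and it fell by 1.61 (adjusted p = 0.0223; 9.59% passed). That call was lost without Juvenile 1 (adjusted p = 0.0678), Juvenile 2 (0.0648) or Adult 2 (0.104), and also by DESeq2, at resolution 0.8 and with near-identical libraries summed. At the ECs' ratio of Pdgfb to Cldn5, free EC RNA would give PVMs 1.84 to 4.36 CPM in Juvenile and 5.07 to 8.02 CPM in Adult. Its part in the fall was not tested. Neither ligand passed in PVMs of Aged (1.81% of genes passed) or EAE (18.4%).

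In all, 58 of the 100 combinations of gene, class and comparison that were fitted passed the filter on low counts, and 10 of them were called, 4 higher and 6 lower than in Adult. The share of all genes that passed ranged from 0% to 57% over these classes and comparisons, so the count has no single background.

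Of 40 other genes of PDGF signaling, 38 were tested in ECs. In Juvenile 8 were higher and 9 lower than in Adult, in Aged 1 was higher and 3 lower, and in EAE 9 were higher and 4 lower, where 43%, 5.21% and 27% of all genes passed. Their median log2 fold change was -0.01, -0.17 and 0.05, against -0.04, -0.00 and 0.01 over all genes. Pdgfd, a ligand of PDGFRβ, was found in ECs at 46.2 to 64.9 CPM in Juvenile, 88.4 to 93.0 CPM in Adult, 100.5 to 111 CPM in Aged and 75.7 to 80.2 CPM in EAE, and fell by 0.61 in Juvenile (adjusted p = 0.00216). Pdgfc, a ligand of PDGFRα, was at 0.127 to 3.87 CPM. In EAE, Nrp1, a co-receptor of several growth factors, was 115 and 119 CPM in EC libraries against 307 to 400 CPM in Adult and fell by 1.41 (adjusted p = 7.85e-06). Furin, a protease that processes PDGF precursors, was higher by 0.77, the signal transducer Stat3 by 0.997 and Spry4, an inhibitor of receptor tyrosine kinase signaling, by 1.17.

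In pericytes, 20 of the 40 genes were tested. In Juvenile 3 were higher and 3 lower, in Aged 1 was lower and in EAE none passed the edgeR test, while 4 of the 20 had an unadjusted p under 0.05. Of all genes, 34.7%, 0.506% and 3.72% passed. Sparc, a matrix protein that binds PDGF-B, was 4014 to 5084 CPM in Juvenile pericytes, 1641 to 2362 CPM in Adult and 1164 and 1168 CPM in Aged, without overlap, and was higher by 1.01 in Juvenile (adjusted p = 1.13e-06) and fell by 0.85 in Aged (adjusted p = 0.0142). Nrp1 (1.37) and Pdap1, a PDGF-binding protein (1.42), were also higher in Juvenile, while the endocytic receptor Lrp1 (-0.97), Furin (-1.63) and the protease Plat (-0.58) were lower. In SMCs 10 were tested, and Sparc alone was called, higher by 1.68 in Juvenile (16.6% of all genes passed). Pericyte markers summed to 12117 to 18932 CPM in Juvenile SMCs and 3238 to 8244 CPM in Adult ones, and fibroblast markers to 842 to 1368 CPM and 212 to 371 CPM. The part of such RNA in this result was not tested. In fibroblast-like cells 18 were tested, and Sparc alone was called, lower by 1.36 in EAE (3.35% of all genes passed). The Lum cluster made up 70% and 50% of these cells in EAE and 8.70% to 16.7% in Adult. The level of Sparc in the class and the share of the Lum cluster cannot be told apart. In choroid plexus cells 38 were tested. In Juvenile 24 were higher and 6 lower, in EAE 13 were higher and 3 lower and in Aged 1 was higher and 1 lower, against 57%, 33.3% and 1.54% of all genes. In microglia 33 were tested, with 5 higher and 6 lower in Juvenile and 3 higher and 3 lower in EAE, against 22.3% and 24.7% of all genes. In PVMs 28 were tested, with 2 higher and 2 lower in Juvenile and 4 higher and 2 lower in EAE, against 9.59% and 18.4% of all genes. In astrocytes 25 were tested, with 2 higher in Juvenile and 2 in EAE, against 13.4% and 2.68% of all genes.

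By the correlation of log2(CPM + 1) over 145 sums of cells by class and sample, given as a description, Pdgfrb was most like Vstm4 (r = 0.90), Lhfp, Ednra, Myl9 and Ano1. Pdgfra was most like Gria3 (r = 0.70), Galnt13, Vsx1, Slc26a7 and Bmp7. Pdgfa was most like Cog7 (r = 0.72), Map1b, Map1lc3a, B230219D22Rik and Zc2hc1a, and Pdgfb like Slc39a8 (r = 0.60), Sox18, Tbx1, Rnf144b and She. The sums share libraries and differ in depth, and 12782 genes were compared.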

How the data were processed

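Libraries were made with 10x Chromium 3′ v2 chemistry. The authors deposited 1 table of UMI counts per library, genes by cell barcodes, not normalized; per the labels and the submitters' processing notes they used bcl2fastq 2.19.1.403, UMI-tools 0.5.3, STAR 2.5.3a and featureCounts 1.6.1 on mm10. From these deposited counts, barcodes were required to hold over 500 genes, to stay below 6000 genes and to have a mitochondrial share below 25%, and were clustered with Seurat 5.3.0 (2000 variable genes, 12 principal components, resolution 0.5), leaving the 4 genes out. Clusters were named from marker lists, so class names were rebuilt and may differ from those of the study. Doublets called by Scrublet (scanpy 1.11.5; 818 cells, 1.62%) were kept and removed as an alternative. UMIs were summed per class and sample with at least 10 cells and tested with edgeR 4.0.16 (quasi-likelihood, TMM, low-count filter) across all genes, with Benjamini-Hochberg adjustment at 0.05, in R 4.3.3. DESeq2 1.42.0 was an alternative. Values after ± are standard errors for log2 differences and SDs for shares.

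Tested on simulated data, 200 of 13682 genes in ECs in EAE were given a log2 change of 1, of which 189 passed the filter, and the fit recovered 58.7% of these, with 8.26% of calls false. The same test recovered 58.5% of 183 genes in pericytes in Juvenile, with 10.8% of calls false, and 56.3% of 190 genes in choroid plexus cells in EAE, with 12.3% of calls false, above the 5% aimed at. Simulated samples were drawn as independent, so these rates do not cover pairs of libraries that may not be. Same-numbered libraries of different groups did not deviate together (correlations -0.202 to 0.123 over 13 pairs), so numbers were not used as pairs. The genes named were the 4 genes, some of a list of 40 PDGF pathway genes, and for each gene the 5 with the highest correlation. Not every pathway gene called in ECs is named, so those named there are a choice. The genes and lists were chosen with earlier results of these data known. The Steap4, Enpp6, Angpt2, Plvap and Cxcl11 clusters were named by their genes, and venous and REV ECs merged, and EC clusters compared one by one, after values were seen. Poisson and binomial intervals cover counting error only.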

Additional observations from a re-analysis of the deposited data

Results flagged for a closer look

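Among 20 sets of 4 Juvenile values of a gene in a class, each with a value of at least 20 CPM, 2 had a library that stood far from the others. Pdgfra in OPC-like cells was 177 CPM in Juvenile 3 and 682 to 712 CPM in the other 3 libraries. Pdgfb in OPC-like cells was 37.9 CPM in Juvenile 2, which was 2 UMIs, and 0 in the other 3. With 0 in those 3, any value above 0 would stand far from them, and the set entered only through that value. The 2 flags are thus not set against a rate given by chance.

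The change of a ligand differed between microglia and ECs in 3 tests of the difference itself (edgeR, interaction of class and condition, microglia minus ECs on the log2 scale). For Pdgfb it was -1.35 in EAE (adjusted p = 1.10e-05) and -0.56 in Juvenile (adjusted p = 0.0353), and for Pdgfa it was -1.35 in Juvenile (adjusted p = 0.0315). The same edgeR test did not pass for Pdgfa in EAE (0.18, adjusted p = 0.844). In Aged it passed neither for Pdgfa (-0.43, adjusted p = 0.785) nor for Pdgfb (-0.39, adjusted p = 0.581). Of 13835 genes, 13.7% passed this test in EAE, 16% in Juvenile and only 78 genes in Aged. The difference for Pdgfb in Juvenile did not pass with near-identical libraries summed (adjusted p = 0.121). These tests were chosen after the values were seen.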

How the results depend on the processing

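Results are log2 differences from Adult unless said otherwise. With near-identical libraries summed, Pdgfb in ECs in EAE was 0.79 (edgeR adjusted p = 0.0691), Pdgfa in SMCs in EAE 0.0211, the count of calls in other classes fell from 8 to 4, and Pdgfb of the Angpt2 cluster against CapV was -0.35 (adjusted p = 0.105). With all 11 libraries as samples, Pdgfb in ECs was -0.21 in Juvenile (adjusted p = 0.0322) and -0.00242 in Aged. In Aged it was -0.16 in CapA alone, -0.12 in CapV alone and -0.06 in the unnamed ECs alone. It was 0.49 in arterial ECs (edgeR adjusted p = 0.401), 0.31 in the Angpt2 cluster and 0.14 in venous and REV ECs. In EAE it was 0.67 in arterial ECs alone (adjusted p = 0.135). At resolution 0.8, Pdgfrb in pericytes in EAE was -0.14 and Pdgfa in SMCs 0.19 in Aged and 0.28 in EAE. Pdgfra in choroid plexus cells of cluster 3 was -0.59 in Juvenile. Without thinning, shares were 36.0% (Pdgfb, ECs), 25.6% (Pdgfra, fibroblast-like cells) and 67.1% (Pdgfa, SMCs). By the exact permutation test, passing neighbour pairs fell from 3 to 0 with these libraries summed (smallest possible p = 0.03125). Pdgfb in EAE was 0.81 in venous subclusters 3 and 6 (adjusted p = 0.000117), chosen after seeing the data in place of the Cxcl11 cluster planned for REVs (0.90, adjusted p = 0.217). Both have 1 Adult sample, assumed to vary like the other groups, so neither is read as a call. The cause of these shifts was not tested.

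Leaving out 1 library at a time, Pdgfb in ECs ranged from -0.29 to -0.15 in Juvenile, -0.0750 to 0.0545 in Aged and 0.63 to 0.77 in EAE; Pdgfrb in pericytes from -0.88 to -0.71, -0.26 to 0.0211 and 0.19 to 0.31; Pdgfa in SMCs from -0.63 to -0.41, -0.48 to -0.27 and -0.22 to 0.0303; and Pdgfra in fibroblast-like cells from -1.45 to 0.33, -0.23 to 1.59 and 0.18 to 2.02. Calls in other classes ranged from 6 to 10. Signs turned for Pdgfb in ECs in Aged without Adult 1, Pdgfrb in pericytes in Aged without Aged 1 (0.0211), Pdgfa in SMCs in EAE without EAE 1 (0.0303), and Pdgfra in fibroblast-like cells without Adult 3 in Juvenile (0.33) and without Adult 1 (-0.23), Adult 2 (-0.18) or Aged 1 (-0.05) in Aged. With the replicate number as a block, Pdgfa in ECs in EAE was -0.89 (adjusted p = 0.00270) and Pdgfb in microglia in EAE -0.61 (adjusted p = 0.0546), calls in other classes numbered 12, and Pdgfb in ECs in EAE was 0.72 (adjusted p = 0.000432). Depth limits receptors in classes near 0 and the Lum cluster of Adult, with 8 cells.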
